A study of Homo sapiens with 12 samples.

Results

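The SLC25 family was described in L428, an established Hodgkin lymphoma cell line, after ixazomib, an inhibitor of the proteasome. Its members were taken as every symbol of the deposited signal table that starts with SLC25A, each represented by its brightest probe over the 12 arrays. This gave 43 members of 31303 symbols in all. Of these, 34 passed the filter on dim probes (detected on at least 3 of 12 arrays), out of 14941 genes that passed it.

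SLC25 proteins are carriers of the inner mitochondrial membrane that exchange a metabolite, nucleotide or ion of the cytosol for one of the matrix. They are encoded in the nucleus, made in the cytosol and inserted by the carrier import pathway, in which the outer membrane TOM complex and the small TIMM chaperones hand them to the TIM22 complex. Oxidative ATP supply, the malate-aspartate shuttle, heme and iron-sulfur cluster synthesis and the glutathione pool of the matrix all depend on them.

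The arrays were Illumina HT-12 bead arrays, and 4 groups of 3 RNA samples were hybridised. Cells were given 25 nM or 71.25 nM ixazomib for 24 h, or were L428 cells resistant to ixazomib, and control L428 cells were the comparison. For the resistant cells the labels state no dose, no clonality and not whether they were harvested in drug. A sample titled 71.25 nM has a description that names 25 nM, and its title was followed. Its values as processed by the authors correlated best by rank with 71.25 nM array 7 of the signal table (rho 0.999979). Biological triplicates are mentioned in the series text only for 25 nM, so p-values measure no more than sample-to-sample spread, part of which may be technical. The mean signal of an array was 316.4 to 384.0 at 25 nM, 342.3 to 353.8 at 71.25 nM, 293.2 to 326.7 in resistant cells and 343.5 to 400.5 in controls. All 8 Hodgkin cell markers were detected on at least 3 arrays, and the summed signal of these markers was 31663.6 to 36914.7 at 25 nM, 20119.4 to 23650.7 at 71.25 nM, 25048.1 to 26027.1 in resistant cells and 34999.4 to 44083.3 in controls. Their part in the results was not tested. Further markers were read without testing which cells gave their signal. On at least 3 arrays 3 of 5 were detected for B cells and 1 of 4 for T cells. For myeloid cells these were 4 of 5, and for stromal and epithelial cells 1 of 4. Among them LYZ had the highest mean signal (138.7). On no array did the summed signals of these 4 sets exceed 560.1, 439.2, 633.7 and 444.4, in the same order. PAX5 of B cells, CD3D, CD3E and CD3G of T cells, ITGAM of myeloid cells, and COL3A1 and KRT18 were detected on no array.

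Promoter sequence is shown for the members with the 2 largest rises and for 1 of the 2 with the largest falls of resistant cells against control, so that the letters can be set beside the values. Windows of 250 bases before and 50 after each annotated start came from RefSeq on build GRCh38.p14, and 35 of 43 members matched, with 44 windows. The 250 bases before the start are printed 5′ to 3′ on the gene's strand. Capitals mark an E-box (CACGTG) or an antioxidant response element core (TGANNNNGC), searched on both strands.
SLC25A24, first of 2 starts, chr1:108200344-108200593, minus strand: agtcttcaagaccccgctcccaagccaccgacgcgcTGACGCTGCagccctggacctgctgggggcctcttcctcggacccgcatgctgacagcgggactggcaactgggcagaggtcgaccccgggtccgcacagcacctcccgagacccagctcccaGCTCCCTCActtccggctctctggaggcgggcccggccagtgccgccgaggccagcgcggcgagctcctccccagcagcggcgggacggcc
SLC25A13, chr7:96322099-96322348, minus strand: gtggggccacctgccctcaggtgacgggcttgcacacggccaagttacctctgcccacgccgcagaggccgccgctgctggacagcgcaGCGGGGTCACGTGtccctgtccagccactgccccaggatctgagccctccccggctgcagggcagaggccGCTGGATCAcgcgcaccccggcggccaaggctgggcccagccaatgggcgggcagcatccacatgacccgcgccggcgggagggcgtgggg
SLC25A38, chr3:39383120-39383369, plus strand: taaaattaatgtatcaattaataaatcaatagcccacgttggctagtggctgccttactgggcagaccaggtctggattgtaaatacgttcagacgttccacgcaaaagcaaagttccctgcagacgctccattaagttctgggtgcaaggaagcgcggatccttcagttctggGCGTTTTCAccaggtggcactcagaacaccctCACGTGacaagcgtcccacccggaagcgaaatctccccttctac
In SLC25A24 the antioxidant cores began at -214 and -91 from the start, and the window of its second start held no match. SLC25A13, which fell, and SLC25A38, which rose, each had 1 E-box, at -154 and -44. In SLC25A13 the E-box overlaps an antioxidant core that begins at -161, and a further core begins at -91. An E-box was present in 8 of 44 member windows (18.2%), against 7.27% of 34961 windows of the whole table. These windows belonged to SLC25A13, SLC25A22, SLC25A26, SLC25A31, SLC25A33, SLC25A36, SLC25A38 and SLC25A46. Of these 8 members 6 passed the filter, and SLC25A31 and SLC25A33 did not. In comparisons with control, SLC25A22 and SLC25A38 had calls higher, SLC25A13 and SLC25A26 had calls lower, and SLC25A36 and SLC25A46 had none. The antioxidant core was in 43.2% of member windows, against 41.8% of all. The core of the ATF4 composite element (TGATGNAA) was in 2.27% of member windows, that of SLC25A11 alone, against 3.62%, and the NRF1 core (GCATGCGC) was in 0 of 44, against 3.06%. A match is a run of letters and was not tested for binding.

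Each group was set against control to ask which carriers differ after drug and in resistance. Falls were called more often than rises among the members that passed the filter. At 25 nM 2 members rose and 13 fell of 34 (44.1% called, against 27% of all genes tested). At 71.25 nM 4 rose and 15 fell (55.9%, against 39.1%). In resistant cells 7 rose and 16 fell (67.6%, against 47.2%). The share of members called lower was 38.2% for 25 nM, 44.1% for 71.25 nM and 47.1% for resistant cells, and over all genes the share called lower was 13.7%, 19.7% and 24.1% in the same comparisons. Called higher were 5.88%, 11.8% and 20.6% of members and 13.3%, 19.4% and 23% of all genes. A call is an adjusted p under 0.05 in limma's moderated test of log2 normalized signal, fitted to all 12 arrays and corrected for multiple tests (Benjamini-Hochberg) across the 20414 kept probes. All 3 comparisons share the same 3 control arrays. In bulk RNA, fewer cells of a type and less RNA per cell cannot be told apart.

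**Figure D1:**
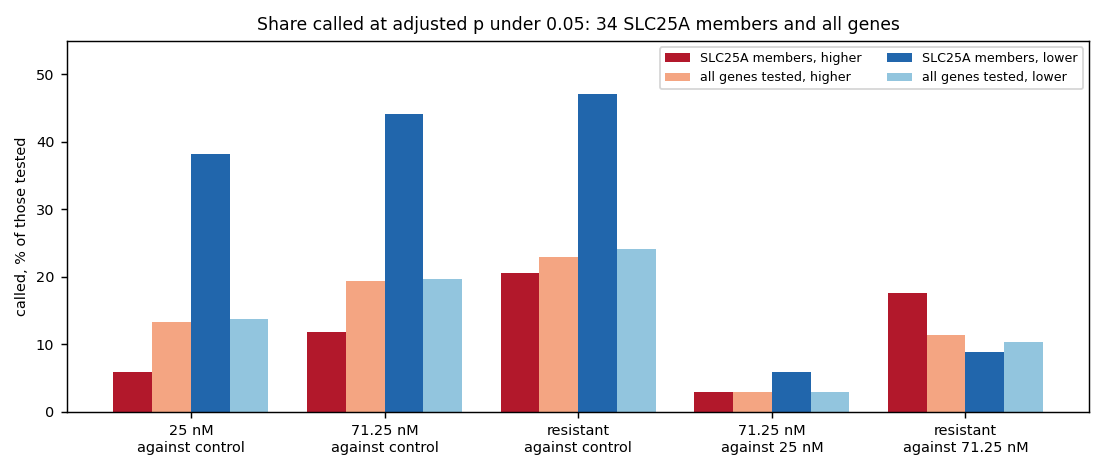
Bars show the percent of the 34 SLC25A members that passed the filter and of the 14941 genes tested that were called higher or lower, for 5 comparisons. Against control the members' lower share is 38.2%, 44.1% and 47.1%, beside 13.7%, 19.7% and 24.1% of all genes. With scaling to housekeeping genes the members called higher and lower become 5 and 12 for 25 nM, 8 and 13 for 71.25 nM, and 12 and 13 for resistant cells. Of all genes 19.5%, 31.9% and 43.8% are then called higher, and 8.17%, 11.4% and 14.2% lower.

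The members' median log2 difference from control was -0.19 after 25 nM, -0.26 after 71.25 nM and -0.26 for resistant cells, beside medians of all genes between -0.02 and 0.00. With SLC25A24 and SLC25A18, which were not detected in 1 of the groups compared, set at their bounds, the medians at 25 nM and 71.25 nM were -0.18 and -0.23, and that in resistant cells stayed at -0.26. Scaling to 10 housekeeping genes moved the median of all genes to 0.12, 0.20 and 0.32 and that of the members to -0.07, -0.06 and -0.05, so the members' median stayed below 0 and below that of all genes in each comparison with control under each scaling tried. It also changed the split of members to 5 higher and 12 lower after 25 nM, 8 higher and 13 lower after 71.25 nM, and 12 higher and 13 lower in resistance, while 70.5%, 73.6% and 75.4% of all called genes were then higher, against 49.4%, 49.7% and 48.8% with quantile normalization. With housekeeping scaling 19.5%, 31.9% and 43.8% of all genes were called higher, and 8.17%, 11.4% and 14.2% lower. Arrays of the 2 groups did not overlap for 23 of 34 members at 25 nM (42% of all genes), 22 at 71.25 nM (48.2%) and 26 in resistant cells (53.8%). Across the 4 groups 25 members differed by the moderated F test (73.5%, against 52.7% of all genes).

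**Figure D2:**
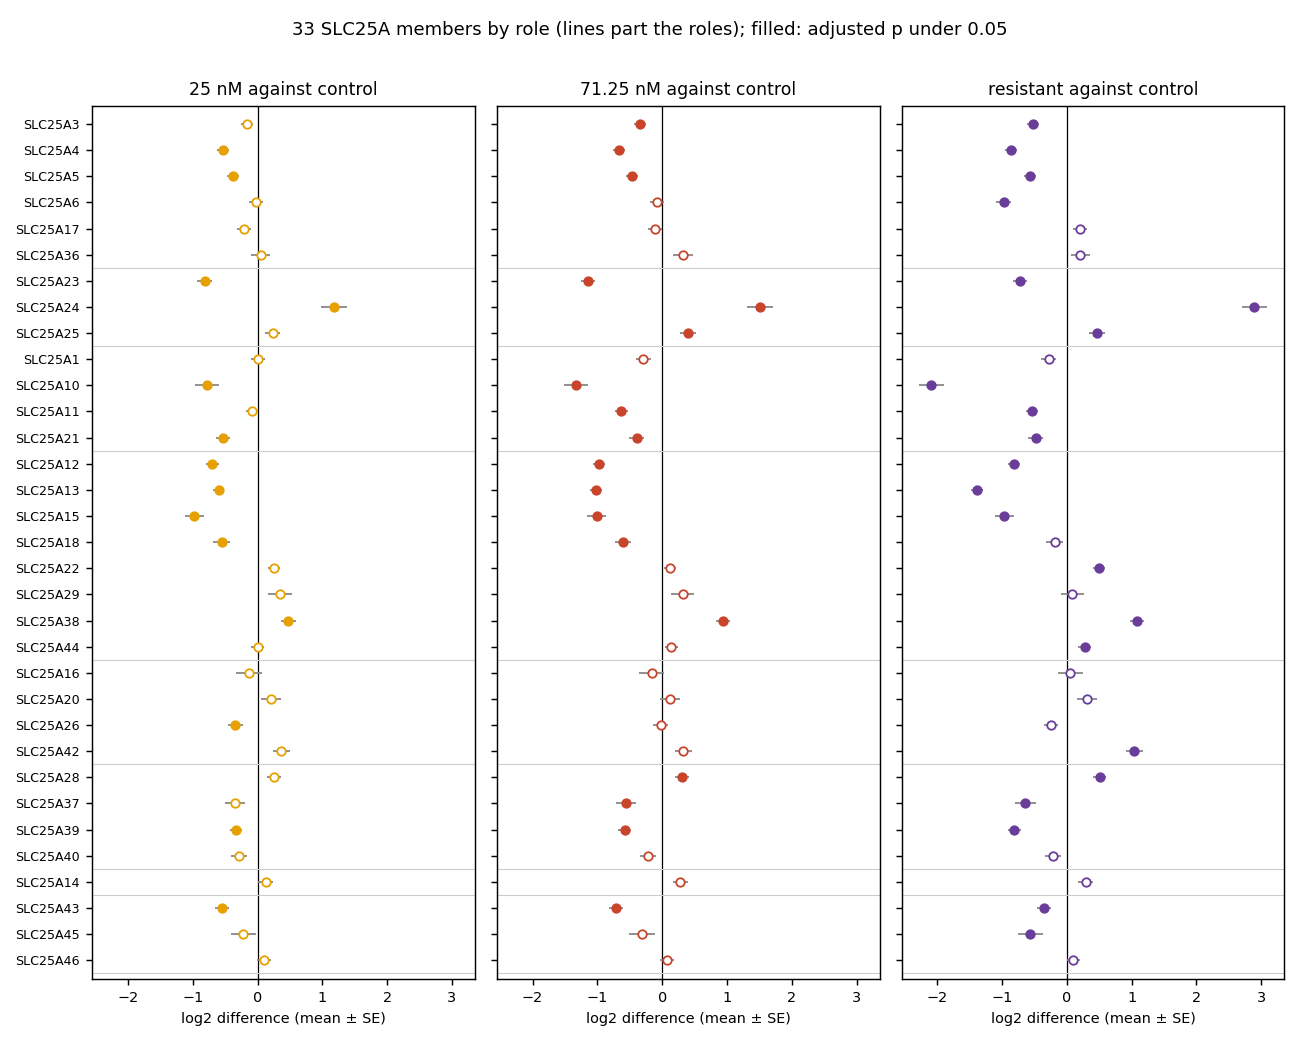
Each point is the log2 difference (mean ± SE) of a member that passed the filter (1 such member is not drawn), in rows parted by role, for 25 nM, 71.25 nM and resistant cells against control. Filled points have an adjusted p under 0.05, and the points of SLC25A24 stand for fitted values because control arrays did not detect it, as do those of SLC25A18, which treated arrays did not detect.

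Among the adenine nucleotide and phosphate carriers, 4 of 6 that passed the filter fell in resistant cells (66.7%, against 24.1% of all genes called lower) and none rose. SLC25A4 (ANT1), SLC25A5 (ANT2) and SLC25A6 (ANT3) exchange cytosolic ADP for matrix ATP. The log2 signal of SLC25A4 was 10.30, 10.37 and 10.37 at 25 nM, 10.16, 10.31 and 10.15 at 71.25 nM, 10.03, 10.03 and 9.98 in resistant cells, and 10.83, 10.80 and 10.99 in controls. Every treated and resistant array lay below every control array. On the log2 scale SLC25A4 fell by 0.53 after 25 nM, by 0.67 after 71.25 nM and by 0.86 in resistant cells (SE 0.10 each; adjusted p 0.00111, 8.96e-05 and 5.57e-06). Its second kept probe gave -0.54, -0.83 and -0.89.

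SLC25A6 had a different course. Its log2 signal was 10.57, 10.33 and 10.53 at 25 nM, 10.53, 10.41 and 10.33 at 71.25 nM, 9.50, 9.65 and 9.42 in resistant cells, and 10.41, 10.46 and 10.64 in controls. Treated arrays overlapped the controls, and the 3 resistant arrays lay below all others. In resistant cells SLC25A6 fell by 0.98 against control (SE 0.11, adjusted p 7.73e-06) and by 0.90 against 71.25 nM (adjusted p 7.22e-05). At 25 nM its difference from control was -0.02, with a 95% interval of -0.26 to 0.22, and at 71.25 nM it was -0.08, with an interval of -0.32 to 0.16. SLC25A5, the isoform of dividing cells, fell by 0.38, 0.46 and 0.56 after 25 nM, after 71.25 nM and in resistant cells (adjusted p 0.00839, 0.00128 and 0.000191). These isoforms are close in sequence, and cross-hybridisation between their probes was not tested.

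SLC25A3, which imports phosphate for ATP synthesis, fell by 0.34 at 71.25 nM (adjusted p 0.00848) and 0.52 in resistant cells (adjusted p 0.000322), and differed by -0.16 at 25 nM (adjusted p 0.217). The mean of its 3 kept probes differed by -0.21 at 71.25 nM with an adjusted p of 0.131. SLC25A17, the peroxisomal carrier of coenzyme A and related cofactors, and SLC25A36, a pyrimidine nucleotide carrier, were called in no comparison with control, with differences of -0.21 to 0.32, and both were called higher in resistant cells with housekeeping scaling (0.49 and 0.47). SLC25A31, the testis ADP/ATP carrier, and SLC25A33, a pyrimidine nucleotide carrier, did not pass the filter.

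The 3 calcium-regulated ATP-Mg carriers that passed the filter moved in different directions. These proteins exchange ATP-Mg for phosphate and so set the adenine nucleotide content of the matrix. SLC25A23 fell at both doses and in resistant cells. Its log2 signal was 8.77, 8.63 and 8.88 at 25 nM, 8.43, 8.56 and 8.30 at 71.25 nM, 8.83, 8.90 and 8.86 in resistant cells, and 9.53, 9.47 and 9.74 in controls. No array of the 3 other groups reached the control arrays, and the 71.25 nM arrays were the lowest. SLC25A23 fell by 0.82 after 25 nM, 1.15 after 71.25 nM and 0.72 in resistant cells (SE 0.11 each; adjusted p 0.000128, 3.03e-06 and 0.000111), and it was 0.43 higher in resistant cells than at 71.25 nM (adjusted p 0.0139). SLC25A25 rose by 0.40 at 71.25 nM (adjusted p 0.016) and 0.47 in resistant cells (adjusted p 0.00486), and its call at 71.25 nM was lost without 71.25 nM array 8 (adjusted p up to 0.0739 over the alternatives) and without control array 2.

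SLC25A24 gave the largest difference, and its probes disagreed. The probe with the highest mean over all arrays, ILMN_1711838, owes that place to the resistant arrays, since a second probe was brighter in each of the other 3 groups. ILMN_1711838 had deposited signals with means of 137.8 at 25 nM, 150.2 at 71.25 nM, 228.1 in resistant cells and 102.8 in controls, and it was detected on all arrays but the 3 controls. Its log2 signal was 5.52, 5.54 and 6.05 at 25 nM, 6.48, 5.78 and 5.83 at 71.25 nM, 7.18, 7.58 and 7.49 in resistant cells, and 4.71, 4.47 and 4.38 in controls. All 9 treated and resistant arrays lay above the controls, and the resistant arrays lay above all treated ones. SLC25A24 was set against the lowest detected signal of the control arrays. It was at least 1.76-fold higher at 25 nM, 2.21-fold at 71.25 nM and 5.77-fold in resistant cells. The adjusted p-values of the moderated test (0.000622, 4.18e-05 and 5.73e-08) belong to the fitted differences, not to these bounds. SLC25A24 passed the filter only through the treated and resistant arrays, where it is high. Its probe was also chosen through the resistant arrays, so p-values of this probe are no independent support. In resistant cells SLC25A24 was 2.61-fold higher than at 71.25 nM (adjusted p 0.000207). These sizes depend on the background correction and on the probe: without the correction the log2 differences were 0.42, 0.56 and 1.33 from control and 0.77 from 71.25 nM, and for the mean of the 3 kept probes they were 0.47, 0.63, 0.92 and 0.29, all called.

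A second probe, ILMN_1752639, had mean signals of 159.3 at 25 nM, 159.3 at 71.25 nM, 127.2 in resistant cells and 143.4 in controls. This probe rose by 0.42 at 71.25 nM (adjusted p 0.0161), differed by -0.13 in resistant cells against control (adjusted p 0.426), and fell by 0.55 in resistant cells against 71.25 nM (adjusted p 0.006). The remaining probe, ILMN_1665838, stayed between 105.4 and 111.0 in group means and was called in no comparison. The direction for SLC25A24 in resistant cells therefore holds for 1 of 3 probes. SLC25A24 was the only 1 of 9 members with several kept probes whose probes were called in opposite directions in a comparison.

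**Figure D3:**
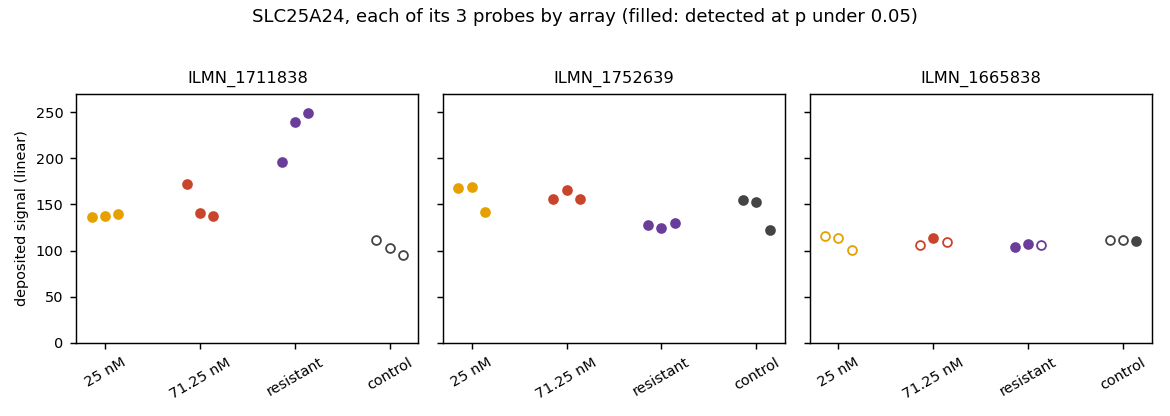
Deposited signal (linear scale) of each SLC25A24 probe on each array of the 25 nM, 71.25 nM, resistant and control groups, with filled points where the probe was detected at p under 0.05. ILMN_1711838 averages 228.1 in resistant cells and 102.8 in controls, and the other probes show no such rise.

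The di- and tricarboxylate carriers included the largest fall. SLC25A10 exchanges malate or succinate of the matrix for phosphate. On the arrays its log2 signal was 8.70, 8.48 and 8.23 at 25 nM, 8.26, 7.90 and 7.60 at 71.25 nM, 6.98, 7.08 and 7.42 in resistant cells, and 8.94, 9.36 and 9.44 in controls. The resistant arrays were below every treated array, and the treated arrays were below every control array. SLC25A10 was 1.71-fold lower at 25 nM, 2.51-fold lower at 71.25 nM and 4.26-fold lower in resistant cells than in controls, with log2 differences of -0.78, -1.33 and -2.09 (SE 0.19 each; adjusted p 0.00822, 9.22e-05 and 9.04e-07). It was 1.70-fold lower in resistant cells than at 71.25 nM (adjusted p 0.0112), a call that was lost without 71.25 nM array 7 (log2 difference -0.59).

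SLC25A11, the oxoglutarate-malate carrier of the malate-aspartate shuttle, differed by -0.09 at 25 nM and fell by 0.63 at 71.25 nM and 0.54 in resistant cells (adjusted p 0.000156 and 0.000383). It was also lower at 71.25 nM than at 25 nM, by 0.54 (adjusted p 0.00565). SLC25A21, which carries oxoadipate and oxoglutarate, fell by 0.53, 0.40 and 0.48 (adjusted p 0.00393, 0.0151 and 0.00363); the middle value became -0.35 without control array 1, -0.31 without 71.25 nM array 8 and -0.26 with housekeeping scaling, and it was then not called. SLC25A1, the citrate exporter that feeds fatty acid synthesis, differed by 0.01 at 25 nM, by -0.29 at 71.25 nM (adjusted p 0.0539) and by -0.28 in resistant cells (adjusted p 0.0537), and both were called with median scaling, without background correction and with the authors' values.

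Both aspartate-glutamate carriers of the malate-aspartate shuttle fell in all groups tested against control. SLC25A13 (citrin) had log2 signals of 7.80, 7.82 and 7.86 at 25 nM, 7.36, 7.46 and 7.40 at 71.25 nM, 7.01, 7.03 and 7.09 in resistant cells, and 8.33, 8.49 and 8.47 in controls. The 4 groups did not overlap. SLC25A13 fell by 0.60, 1.02 and 1.39 after 25 nM, after 71.25 nM and in resistant cells (SE 0.09 each; adjusted p 0.00031, 1.47e-06 and 4.38e-08). SLC25A12 (aralar) had log2 signals of 6.38, 6.33 and 6.33 at 25 nM, 6.14, 6.02 and 6.04 at 71.25 nM, 6.28, 6.14 and 6.28 in resistant cells, and 6.92, 7.10 and 7.11 in controls. Its 9 treated and resistant arrays lay below the controls. SLC25A12 fell by 0.70, 0.98 and 0.81 (SE 0.10 each; adjusted p 0.000153, 3.65e-06 and 1.06e-05).

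SLC25A15 exchanges cytosolic ornithine for citrulline of the matrix. It had log2 signals of 5.55, 5.13 and 4.96 at 25 nM, 5.03, 5.22 and 5.29 at 71.25 nM, 5.19, 5.37 and 5.12 in resistant cells, and 6.33, 6.07 and 6.18 in controls. These 3 groups overlapped one another, and each lay below the controls. SLC25A15 fell by 0.98, 1.01 and 0.96 (SE 0.15 each; adjusted p 0.000288, 0.000105 and 9.93e-05). Without background correction the differences were -0.38, -0.39 and -0.38, still called.

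SLC25A38, the glycine carrier for heme synthesis, rose. Log2 signals of this gene were 7.50, 7.40 and 7.66 at 25 nM, 7.86, 7.93 and 8.15 at 71.25 nM, 8.13, 8.22 and 8.03 in resistant cells, and 7.09, 6.93 and 7.12 in controls. Every treated and resistant array was above every control array. SLC25A38 was 1.39-fold higher at 25 nM, 1.92-fold higher at 71.25 nM and 2.12-fold higher in resistant cells (log2 0.48, 0.94 and 1.08, SE 0.11 each; adjusted p 0.0069, 2.13e-05 and 3.31e-06).

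The remaining amino acid carriers split. SLC25A22, glutamate carrier 1, rose by 0.50 in resistant cells (adjusted p 0.000669) and differed by 0.25 at 25 nM (adjusted p 0.0732) and 0.12 at 71.25 nM. SLC25A18, glutamate carrier 2, was detected on all 3 control arrays and on 2 of 3 resistant arrays, but on no treated array, so it passed the filter through the controls and resistant cells. Its control signal was at least 1.15-fold that at 25 nM and at least 1.17-fold that at 71.25 nM. The adjusted p-values of the moderated test (0.00663 and 0.00225) belong to the fitted differences, not to these bounds. As its place in the filter depended on the control arrays, they are no independent support. SLC25A18 is counted among the falls at 25 nM and 71.25 nM. SLC25A44, which carries branched-chain amino acids, rose by 0.28 in resistant cells (adjusted p 0.0353), a call lost without control array 1, control array 3, resistant array 11 or resistant array 12, with median scaling (0.09) and in a fit of only these groups. SLC25A29, a basic amino acid carrier, was not called, with differences of 0.35, 0.32 and 0.08, though with housekeeping scaling it was at 71.25 nM and in resistant cells (0.57 and 0.50).

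**Figure D4:**
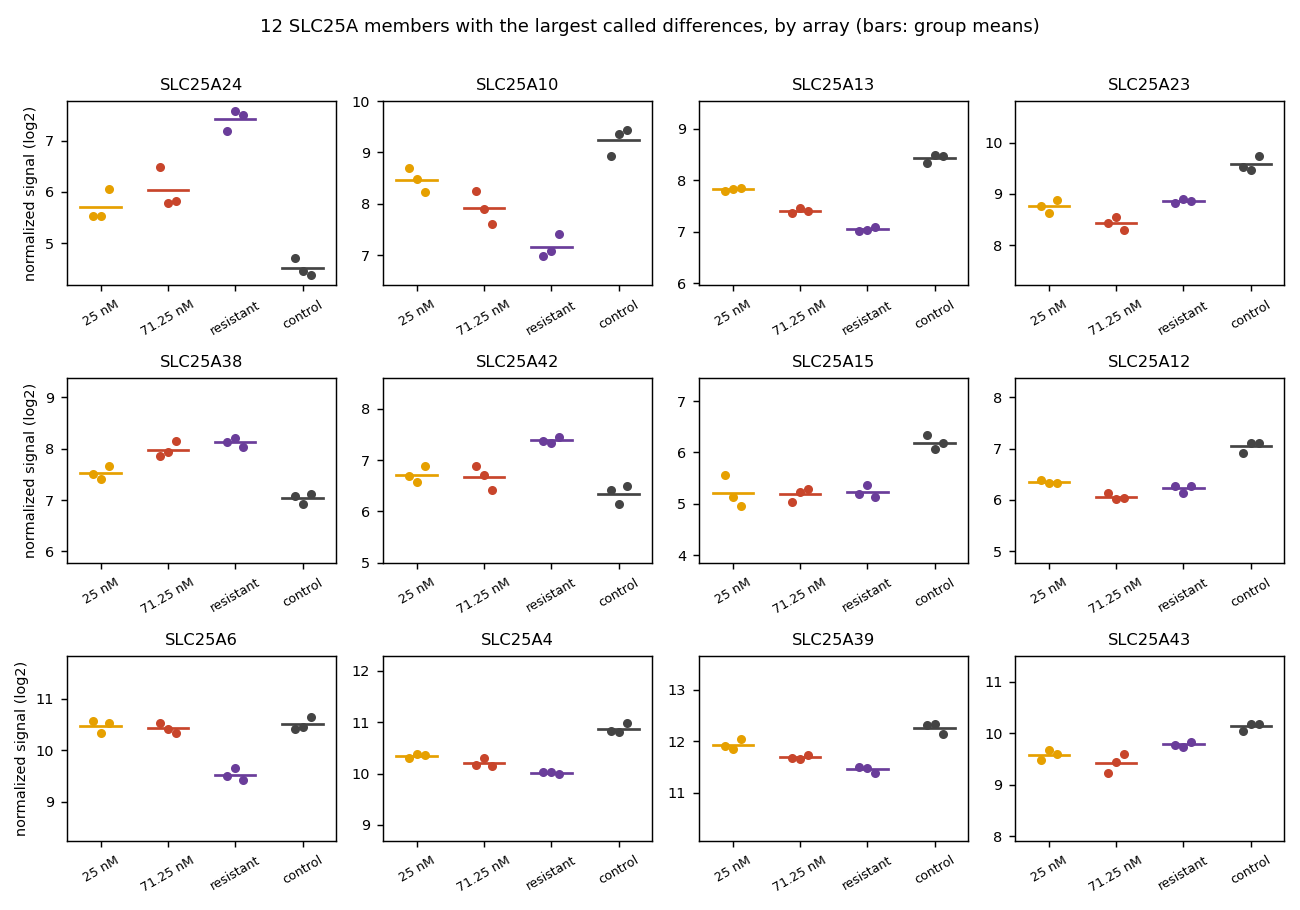
Log2 normalized signal on each array for the 12 members with the largest called differences against control, with group means as bars and groups ordered 25 nM, 71.25 nM, resistant and control. SLC25A10 and SLC25A13 are lowest in resistant cells, SLC25A6 is low in resistant cells alone, and SLC25A38 and SLC25A24 lie above control in the other groups.

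Among the carriers of cofactors, SLC25A42 rose in resistant cells. This protein brings coenzyme A into the matrix. Log2 signals were 6.69, 6.57 and 6.88 at 25 nM, 6.89, 6.70 and 6.42 at 71.25 nM, 7.38, 7.34 and 7.45 in resistant cells, and 6.41, 6.14 and 6.49 in controls. The resistant arrays lay above all others. SLC25A42 was 2.06-fold higher in resistant cells than in controls (log2 1.04 ± 0.14 SE, adjusted p 2.68e-05) and 1.64-fold higher than at 71.25 nM (adjusted p 0.00205), while at 25 nM and 71.25 nM it differed by 0.37 and 0.33 (adjusted p 0.0635 and 0.0755). It was called higher at both doses with housekeeping scaling (0.53 and 0.57) and without 71.25 nM array 9 (0.37 and 0.45). At 25 nM alone it was also called under some further alternatives, such as the stricter detection filter.

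SLC25A26, the S-adenosylmethionine carrier, fell by 0.34 at 25 nM (adjusted p 0.0393), and differed by -0.03 at 71.25 nM and -0.24 in resistant cells. The mean of its 4 kept probes differed by -0.12 at 25 nM and was not called, and the call was also lost with housekeeping scaling (-0.19), in a fit of only these groups, and without control array 1 or 2, 25 nM array 4 or 6, 71.25 nM array 7 or resistant array 11. SLC25A20, the carnitine-acylcarnitine carrier, and SLC25A16, a carrier linked to coenzyme A, were not called, with differences between -0.16 and 0.31. A second kept probe of SLC25A20, ILMN_1667429, was called higher at 71.25 nM (0.40, adjusted p 0.031) and in resistant cells (0.43, adjusted p 0.0182), and the mean of its kept probes in resistant cells (0.37, adjusted p 0.0193). SLC25A32, the folate and FAD carrier, was detected on no array.

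Of 4 iron and glutathione carriers, 2 fell and 1 rose at 71.25 nM (39.1% of all genes were called) and likewise in resistant cells (47.2%). SLC25A39, which brings glutathione into the matrix, had log2 signals of 11.91, 11.85 and 12.04 at 25 nM, 11.67, 11.66 and 11.74 at 71.25 nM, 11.50, 11.48 and 11.38 in resistant cells, and 12.32, 12.33 and 12.14 in controls. No treated or resistant array reached the controls. SLC25A39 fell by 0.33, 0.58 and 0.81 (SE 0.10 each; adjusted p 0.023, 0.000401 and 1.37e-05), and the call at 25 nM was lost without array 1 or 2 of the controls or array 4 or 5 of 25 nM and in a fit of only these groups. Its paralog SLC25A40 differed by -0.28, -0.22 and -0.21 and was not called. At 25 nM SLC25A40 was called lower without background correction and with the authors' values (-0.22 each). In resistant cells it was called lower with median scaling (-0.36).

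The mitoferrins, which import iron, went opposite ways. SLC25A37 (mitoferrin 1) fell by 0.56 at 71.25 nM and 0.64 in resistant cells (adjusted p 0.0121 and 0.00405). SLC25A28 (mitoferrin 2) rose by 0.31 at 71.25 nM and 0.51 in resistant cells (adjusted p 0.0291 and 0.000926). At 71.25 nM both calls were lost without control array 1; that of SLC25A37 was also lost without 71.25 nM array 9, and that of SLC25A28 without control array 2, 71.25 nM array 7 or 71.25 nM array 8, with median scaling and in a fit of only these groups. Housekeeping scaling ended both calls of SLC25A37, at 71.25 nM (-0.34) and in resistant cells (-0.35, adjusted p 0.08).

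SLC25A43 has no substrate assigned here. Its log2 signal was 9.49, 9.68 and 9.59 at 25 nM, 9.23, 9.45 and 9.59 at 71.25 nM, 9.78, 9.74 and 9.84 in resistant cells, and 10.05, 10.18 and 10.17 in controls. The controls were the highest group without overlap. SLC25A43 fell by 0.55, 0.71 and 0.35 (SE 0.11 each; adjusted p 0.00235, 0.000175 and 0.0184), and the call in resistant cells was lost without control array 2 or resistant array 11 and with housekeeping scaling (-0.27). SLC25A45 fell by 0.57 in resistant cells with overlapping arrays (adjusted p 0.0294), which became -0.30 without resistant array 12, -0.50 without control array 1, -0.52 without control array 2, -0.17 with housekeeping scaling and -0.49 with median scaling, and was then not called, nor with no filter or in a fit of only these groups. SLC25A46, an outer membrane protein of mitochondrial dynamics, differed by 0.08 to 0.10 and SLC25A14 (UCP5) by 0.12 to 0.29, and neither was called, although SLC25A14 was at 71.25 nM and in resistant cells without background correction and with housekeeping scaling. SLC25A2, SLC25A27, SLC25A34, SLC25A35 and SLC25A41 were detected on no array, and SLC25A30 on 2.

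The doses were set against each other to ask which carriers depend on dose. Of 34 members 1 rose and 2 fell at 71.25 nM against 25 nM (8.82%, against 5.86% of all genes, with 2.97% of all genes called higher and 2.89% lower). SLC25A38 rose by 0.46 (SE 0.11, adjusted p 0.0307), SLC25A13 fell by 0.42 (SE 0.09, adjusted p 0.0179) and SLC25A11 fell by 0.54. Arrays of the doses did not overlap for 13 members (29.1% of all genes). SLC25A10 differed by -0.55, with a 95% interval of -0.96 to -0.14 (adjusted p 0.108). It was called lower without background correction and with the authors' values (-0.43 each), with an offset of 50 (-0.49) and with the trend and robust prior. SLC25A15, at -0.03, had an interval of -0.35 to 0.28. The SLC25A13 call was lost on leaving out any 25 nM array, or 71.25 nM array 7 or 9, with values from -0.43 to -0.39, and with housekeeping scaling (-0.35). That of SLC25A38 was lost without 25 nM array 4 or 5, or 71.25 nM array 8 or 9, with values from 0.38 to 0.49. In a fit of only these doses both calls were lost.

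Resistant cells were set against 71.25 nM to ask how carrier expression in resistance differs from that after 24 h of drug. Of 34 members 6 rose and 3 fell (26.5%, against 21.6% of all genes, with 11.3% called higher and 10.3% lower). Arrays of these groups did not overlap for 17 members (37.9% of all genes). The falls were SLC25A6, SLC25A10 and SLC25A13, the last by 0.36 (adjusted p 0.0114), a call lost with housekeeping scaling (-0.32, adjusted p 0.0596). SLC25A24, SLC25A42, SLC25A23, SLC25A18, SLC25A22 and SLC25A43 rose. Of these SLC25A24 and SLC25A42 kept the call under every alternative run, while the other 4 lost it under at least 1. For SLC25A24 the alternatives used its brightest probe or the mean of its kept probes. Another of its probes, called lower in this comparison, was not tried alone. SLC25A22 rose by 0.38 (adjusted p 0.0113) and SLC25A43 by 0.36 (adjusted p 0.0305). As no 71.25 nM array detected SLC25A18, its rise is a bound of at least 1.03-fold. The adjusted p of the moderated test (0.0343) belongs to the fitted difference, not to this bound. The call of SLC25A23 was lost without 71.25 nM array 9 (0.36) and with median scaling (0.31), and that of SLC25A22 with median scaling (0.26) and housekeeping scaling (0.34). That of SLC25A18 was lost without any of the 71.25 nM arrays, resistant array 10 or resistant array 12, without background correction and with the authors' values. That of SLC25A43 was lost without 71.25 nM array 7 or 8 or any resistant array, with values from 0.27 to 0.39, and with median scaling (0.24), housekeeping scaling (0.33), the mean of its kept probes (0.27) or a fit of only these groups. With median scaling 3 members rose in place of 6, and the members' median was -0.06, against 0.02 with quantile normalization.

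Genes that insert carriers into the membrane were read from a list of 16, all of which passed the filter. In this list 1 gene rose and 6 fell at 25 nM, 2 rose and 10 fell at 71.25 nM, and 1 rose and 8 fell in resistant cells (43.8%, 75% and 56.2% called, against 27%, 39.1% and 47.2% of all genes, the shares that the further lists are also read against), with median log2 differences of -0.25, -0.34 and -0.25. Scaled to housekeeping genes these counts were 3 and 4, 3 and 5, and 4 and 5, with medians of -0.16, -0.21 and -0.12. Of all genes this scaling called 19.5%, 31.9% and 43.8% higher and 8.17%, 11.4% and 14.2% lower. The medians of all genes were then 0.12, 0.20 and 0.32. Values of the further lists under this scaling are read against these. TIMM8A, a small chaperone of the intermembrane space, fell by 0.87, 1.04 and 0.68 (SE 0.14 each; adjusted p 0.00052, 5.8e-05 and 0.0013). TOMM20, a receptor of the outer membrane, fell by 0.65, 0.75 and 0.49. TIMM9 and TIMM10, which chaperone carriers between the membranes, fell by 0.35, 0.30 and 0.38 and by 0.42, 0.31 and 0.65. TIMM22, the channel that inserts carriers, rose by 0.33, 0.45 and 0.77, and TOMM70A, the receptor for carrier precursors, was not called, with differences of -0.05, 0.08 and -0.04.

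**Figure D5:**
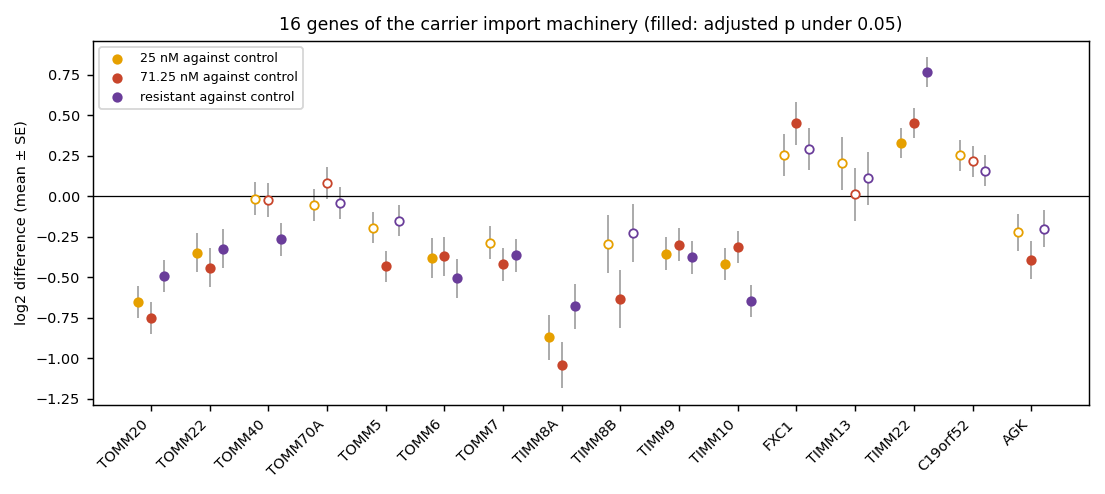
Log2 difference (mean ± SE) of 16 import genes for 25 nM, 71.25 nM and resistant cells against control, filled where adjusted p is under 0.05. TIMM22 lies above 0 and TOMM20, TIMM8A, TIMM9 and TIMM10 below 0 in each comparison.

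Carrier family genes with other symbols were 8, of which 4 passed the filter (25%, 50% and 25% called). MTCH1, a carrier-like protein of the outer membrane, rose by 0.68, 1.07 and 1.03, and no other gene of this list rose. MCART1 (SLC25A51), which brings NAD into the matrix, fell by 0.67 at 71.25 nM and differed by 0.02 and -0.23 at 25 nM and in resistant cells. The list's medians were 0.01, -0.06 and -0.15, and with housekeeping scaling 0.11, 0.18 and 0.12. UCP2 was not called.

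Other mitochondrial transporters and channels numbered 17, of which 15 passed the filter. Of these 2 rose and 3 fell at 25 nM, 2 rose and 3 fell at 71.25 nM, and 1 rose and 4 fell in resistant cells (33.3% called in each, below all genes at 71.25 nM and in resistant cells). The medians were 0.12, 0.14 and -0.10, the last turning to 0.22 with housekeeping scaling, under which 7 rose and 3 fell at 71.25 nM and 5 rose and 3 fell in resistant cells. Of all genes 31.9% and 43.8% were then called higher and 11.4% and 14.2% lower, with a median of 0.32 in resistant cells. With median scaling 2 rose and 7 fell in resistant cells. ABCB10, an inner membrane transporter needed for heme synthesis, fell by 0.64, 0.96 and 1.57. BRP44L (MPC1), a subunit of the pyruvate carrier, fell by 0.58, 0.71 and 0.77, whereas its partner BRP44 (MPC2) differed by 0.23, 0.21 and 0.09 and was not called.

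Of 12 enzymes of malate, aspartate, citrate and glutamate, 2 rose and 1 fell at 25 nM, 4 rose and 5 fell at 71.25 nM, and 3 rose and 4 fell in resistant cells, the falls being 8 with median scaling (25%, 75% and 58.3% called; medians 0.04, -0.06 and -0.15, the first turning to -0.09 with median scaling). The cytosolic and mitochondrial aspartate aminotransferases, which act with SLC25A12 and SLC25A13 in the malate-aspartate shuttle, went opposite ways. GOT1 of the cytosol rose by 0.31, 0.90 and 1.08, and GOT2 of the matrix differed by -0.28 at 25 nM (adjusted p 0.12) and fell by 0.70 and 0.86 at 71.25 nM and in resistant cells. MDH2, the matrix malate dehydrogenase, fell by 0.41 and 0.50 in these last groups, and cytosolic MDH1 was not called, with differences of -0.03 to 0.03.

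Enzymes of proline, ornithine, serine and folate numbered 10, with 9 past the filter. None rose and 2 fell at 25 nM, 2 rose and 2 fell at 71.25 nM, and 2 rose and 3 fell in resistant cells (22.2%, 44.4% and 55.6% called; medians -0.16, 0.17 and -0.18; the first is 0.00 with ARG2, not detected at 25 nM, at its bound). With housekeeping scaling 4 rose and 1 fell at 71.25 nM, and 4 rose and 3 fell in resistant cells. Of all genes 31.9% and 43.8% were then called higher, and 11.4% and 14.2% lower. ALDH18A1, the entry enzyme of proline and ornithine synthesis from glutamate, fell by 0.54, 0.61 and 1.33. MTHFD1L, a folate enzyme of the matrix, fell by 0.82 in resistant cells and differed by -0.16 and -0.04 at 25 nM and 71.25 nM.

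Of 10 enzymes of carnitine, heme and iron-sulfur clusters 8 passed the filter, with 1 fall at 25 nM, 1 rise and 3 falls at 71.25 nM, and 1 rise and 3 falls in resistant cells (12.5%, 50% and 50% called; medians 0.05, -0.23 and -0.05, the last turning to 0.27 with 4 rises and no fall under housekeeping scaling). With that scaling 43.8% of all genes were called higher and 14.2% lower in resistant cells, with a median of 0.32. The heme enzymes CPOX and PPOX fell by 0.66 and 0.67 at 71.25 nM, and NFS1, the cysteine desulfurase of cluster synthesis, fell by 0.74. ALAS1, whose substrate glycine SLC25A38 brings in, rose by 0.31 at 71.25 nM (adjusted p 0.044).

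Of 11 regulators of mitochondrial biogenesis 9 passed the filter. At 25 nM 1 rose and 1 fell, at 71.25 nM 1 fell, and in resistant cells 4 fell (22.2%, 11.1% and 44.4% called; medians -0.06, -0.10 and -0.36, the last -0.28 with NRF1, not detected in resistant cells, at its bound; housekeeping scaling turned the first and second to 0.05 and 0.08). TFAM, which packs and transcribes mitochondrial DNA, differed by -0.13 and -0.10 at 25 nM and 71.25 nM and fell by 0.64 in resistant cells. The coactivators PPARGC1A and PPARGC1B did not pass the filter.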

How the data were processed

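The deposited signal table gives each probe's mean bead intensity, linear and with no background subtraction or normalization, and a detection p-value beside each deposited intensity. The scanner software, genome build and bead filters are not given in the sources used here. A second deposited table holds intensity values that the authors corrected through housekeeping genes and quantile normalized, per the series' design text; their scale was linear with no centring (column medians 103.9 to 104.8), and the housekeeping genes used are unknown. RNA was extracted with RNeasy and labelled with a biotin kit, per the labels' protocols.

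Here signals were background corrected by limma's normexp model (limma 3.58.1, R 4.3.3; control mean and spread inferred from detection p-values, offset 16), quantile normalized and taken to log2. A probe was kept if detected at p under 0.05 on at least 3 of 12 arrays, which left 20414 of 47227 probes; 3270 probes had no symbol and 54 had a date for one. One mean per group was fitted to the 12 arrays (8 residual and 5.50 prior degrees of freedom), with moderated two-sided tests and the Benjamini-Hochberg adjustment over all kept probes. Array columns carry a group and a running number, so their labels do not tie them to replicate numbers. Where no array of a group detected a gene, the fold is a bound: on each array of that group the gene was set to its own signal or to the lowest detected signal, whichever was higher. Precision is limited by the number of arrays; a member's log2 difference had a median standard error of 0.11. Arrays of the same group correlated with r from 0.9898 to 0.9939.

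Per-array values are given for the 12 members with the largest called difference against control, and other members are named under their role; 1 member and some genes of the lists are counted but not reported here. The members and the gene lists were chosen with earlier results of these data known, so lists are described by counts and medians, with no test of a list. Alternatives were other scalings, background settings, filters, probe rules, fits and the authors' values, and leaving out each array. The fit was tested on simulated data. Promoter windows came from RefSeq, build GRCh38.p14; protein sequences were not used here. Plots were made with matplotlib 3.10.9.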

Additional observations from a re-analysis of the deposited data

How the results depend on the processing

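Of 69 calls of a member in a comparison, 50 were kept under all alternatives run, and none reversed. These 50 include the calls of SLC25A18 against control, which could not be tried under the stricter detection filter. They also include the calls of SLC25A24, whose probe with an opposite call was not tried alone. Of 101 member differences that were not called, 27 were called under at least 1 alternative. In fold, 7 called differences, all of SLC25A24 and SLC25A15, moved by over 1.5 times, under background settings, the mean of the kept probes or the authors' values and never on leaving out 1 array. At 25 nM against control, 2 members were called higher; this was 4 with no background correction and with the authors' processed values, and 5 with housekeeping scaling, an offset of 50, the stricter detection filter and the trend and robust prior. Housekeeping scaling also gave 8 rises in place of 4 at 71.25 nM and 12 in place of 7 in resistant cells. It raised the share of all genes called higher as well. Against control this share was 19.5% for the lower dose, 31.9% for the higher dose and 43.8% for resistance. With quantile normalization the shares were 13.3%, 19.4% and 23%. For 71.25 nM against 25 nM, 1 member rose and 2 fell; the falls were 1 with housekeeping scaling, 5 with no background correction, 4 with an offset of 50, 5 with the trend and robust prior and 5 with the authors' values, and fitting only the groups compared gave 0 rises and 1 fall. For resistant cells against 71.25 nM, 6 rose and 3 fell; rises were 3 with median scaling, and falls were 5 with no background correction and 6 with the authors' values. The cause was not tested. Leaving out 1 array, or the 71.25 nM sample whose description names 25 nM (from the authors' values, chosen after seeing the data: 5 rises at 25 nM against control, 5 falls in resistant cells against 71.25 nM), gave 2 to 5 rises and 11 to 14 falls at 25 nM, 2 to 5 and 14 to 16 at 71.25 nM (2 rises without 71.25 nM array 8), 6 to 8 and 14 to 17 in resistant cells, 0 to 1 and 1 to 3 between doses, 4 to 6 and 2 to 5 in resistant cells against 71.25 nM, and 22 to 27 across the 4 groups. An ordinary F test across the groups, run here on the authors' values of the kept probes, gave 25 members. The columns of the deposited signals carry no replicate number, and no paired fit was made on them. Each numbered sample of the authors' values correlated best by rank with a separate array of its group, in running order. The sample whose description names 25 nM went with 71.25 nM array 7. With the authors' values and the replicate number as a block, 4 members rose at 25 nM against control and 5 fell between doses. Same-numbered samples deviated together with r from -0.29 to 0.16 over 18 pairs (2 over 0.1). Differently numbered samples of different groups did so with r from -0.18 to 0.30, and 7 of 12 samples correlated best with their own number. These values do not settle whether the numbers pair samples, and the main fit did not pair them. Members dim against background, SLC25A24 and SLC25A18, have bounds only where a group compared did not detect them. Both passed the filter only through groups where they are high, so their calls there are no independent support.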
